A study of Mus musculus with 16 samples.

Results

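A list of 35 genes of fatty acid oxidation and peroxisomes was followed in whole kidneys of 16 mice on 1-colour Agilent arrays. They were chosen by gene symbol as a pathway list and make up 35 of the 22911 genes that a probe of the array names. Each gene was read from the probe with its highest mean signal, and all 35 were well above background on all 16 arrays and were tested. A level is the log2 processed signal minus the 75th percentile of its array, so 1 unit is a 2-fold step. The study asked whether STING, an adaptor that drives type I interferon after cytosolic DNA is sensed, takes part in the lupus of mice that lack the inhibitory receptor FcγRIIb. The groups were WT mice on C57BL/6, Fcgr2b-ko mice on 129/C57BL/6 (labelled lupus mouse), double-deficient mice on 129/C57BL/6 (labelled Fcgr2b-ko, Sting-ko), and Sting-ko mice on C57BL/6, with 4 mice of each at 6 months of age and no treatment. The Sting-ko allele was the germline Goldenticket allele (gt), a functional knockout, and the Fcgr2b deletion was germline too, so neither was limited to kidney cells. Parts of the study's text on kidneys name the Fcgr2b-deficient comparison mice as Sting wt/gt, whereas the labels give no Sting genotype for the Fcgr2b-ko mice. Fcgr2b deficiency and the part-129 background came together and cannot be told apart, and the WT mice were bought whereas the mutant lines came from other laboratories.

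Cells burn long fatty acids by first joining them to coenzyme A, carrying them across the mitochondrial membrane on carnitine, and shortening them in repeated rounds of dehydrogenation, hydration, dehydrogenation and thiolysis. Peroxisomes run a parallel pathway that shortens very long and branched fatty acids, and PPARα (Ppara) with its coactivator PGC-1α (Ppargc1a) switches on many genes of both pathways. In the kidney the proximal tubule is packed with mitochondria and peroxisomes and draws much of its energy from fatty acids.

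The arrays had between 28443 and 35566 probes well above background. Fcgr2b itself, on its brighter probe, lay between 1.14 and 2.13 in the WT mice, between 0.02 and 0.70 in the Fcgr2b-ko mice, between -0.40 and 0.50 in the double-deficient mice and between -0.19 and 1.54 in the Sting-ko mice. The mouse labelled Sting-ko replicate 4 held the -0.19, inside the range of the Fcgr2b-deficient groups. Sting-ko replicate 3, at 0.70, was level with the highest Fcgr2b-ko mouse. On the second probe, Sting-ko replicates 3 and 4 (-1.01 and -1.43) both lay inside the Fcgr2b-ko range of -1.45 to -0.58. Whether either probe lies in the deleted part of Fcgr2b is not given in the sources used here. The gt allele is a point mutation that leaves the transcript, so the Sting1 level checks no label. The labels do not give the sex of the mice. Transcripts of the Y chromosome were above background in 6 mice (2 WT, 1 Fcgr2b-ko, 2 double-deficient and 1 Sting-ko) and not in the other 10.

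No member passed the test between genotypes, but the Fcgr2b-ko and the Sting-ko kidneys both had lower mean levels of most members than the WT kidneys, and the double-deficient kidneys lay near WT. In Fcgr2b-ko minus WT, 34 of 35 members had a log2 change below 0, against 56.6% of all tested probes, and the median over members was -0.43 (all probes: -0.06). In Sting-ko minus WT, 32 of 35 were below 0, against 49.9% of probes, with a median of -0.48 (all probes: 0.00). In double-deficient minus Fcgr2b-ko, 34 of 35 were above 0, against 57.5% of probes, with a median of 0.32 (all probes: 0.06). By the barcodes in the file headers, 3 of 4 Fcgr2b-ko arrays were on slide 1 and 3 of 4 double-deficient arrays on slide 2. Slide and genotype thus partly came together in this comparison. With slide as a block its median was 0.29, with 3 of 35 members below 0. In double-deficient minus Sting-ko, 31 of 35 were above 0, against 51% of probes, with a median of 0.38 (all probes: 0.01). In double-deficient minus WT, 24 of 35 were below 0, against 49.4% of probes, with a median of -0.08 (all probes: 0.00). The normalization set the size of these medians: with quantile normalization and with the authors' table they were -0.27 and -0.26 in Fcgr2b-ko minus WT, -0.25 and -0.23 in Sting-ko minus WT, and 0.02 and 0.02 in double-deficient minus WT, where the sign turned. These comparisons share groups (the same 4 WT mice, for example), so they are not independent of one another. In RNA of a whole kidney, fewer proximal tubule cells and less RNA per cell cannot be told apart.

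The test was limma on 35629 probes, and a call needed a 2-fold change or more with p under 0.05 after Benjamini-Hochberg adjustment. It called 0 of the 35 members in Fcgr2b-ko minus WT, where 0.0505% of all probes were called, and 0 in each other comparison, where 0% of probes were called. At an unadjusted limma p under 0.05, 1 member was lower in Fcgr2b-ko minus WT (0.71% of probes were lower at that p). In Sting-ko minus WT 4 were lower (1.91% of probes), in double-deficient minus Sting-ko 2 were higher (1.63% of probes), and in the other 2 comparisons there were 0 (1.81% and 0.424% of probes, either direction). The exact Mann-Whitney test without adjustment, with the 2-fold limit, called 0 members in each comparison. In the moderated F test for any difference among the 4 genotypes, 0 members and 0.0196% of probes had an adjusted p under 0.05, with 0 members and 1.77% of probes at an unadjusted p under 0.05. The labels also give each mouse an animal label, whose first number is shared by Fcgr2b-ko replicate 3 and double-deficient replicate 4, by Fcgr2b-ko replicate 4 and double-deficient replicate 3, and by WT replicates 3 and 4. The mice of each of these pairs matched in having or lacking Y-chromosome transcripts above background, so within the pairs the shared label and that split went together. No fit held both. The fitted correlation within a label was 0.83. What the first number of the label marks is not given in the sources used here. With it as a random block limma again called 0 members, but 6 in place of 0 had an unadjusted p under 0.05 in double-deficient minus Fcgr2b-ko, where 1632 of the 35629 probes were higher and 1979 lower at that p, and 13 in place of 6 in the interaction, where 1673 probes were above and 1213 below 0.

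**Figure D1:**
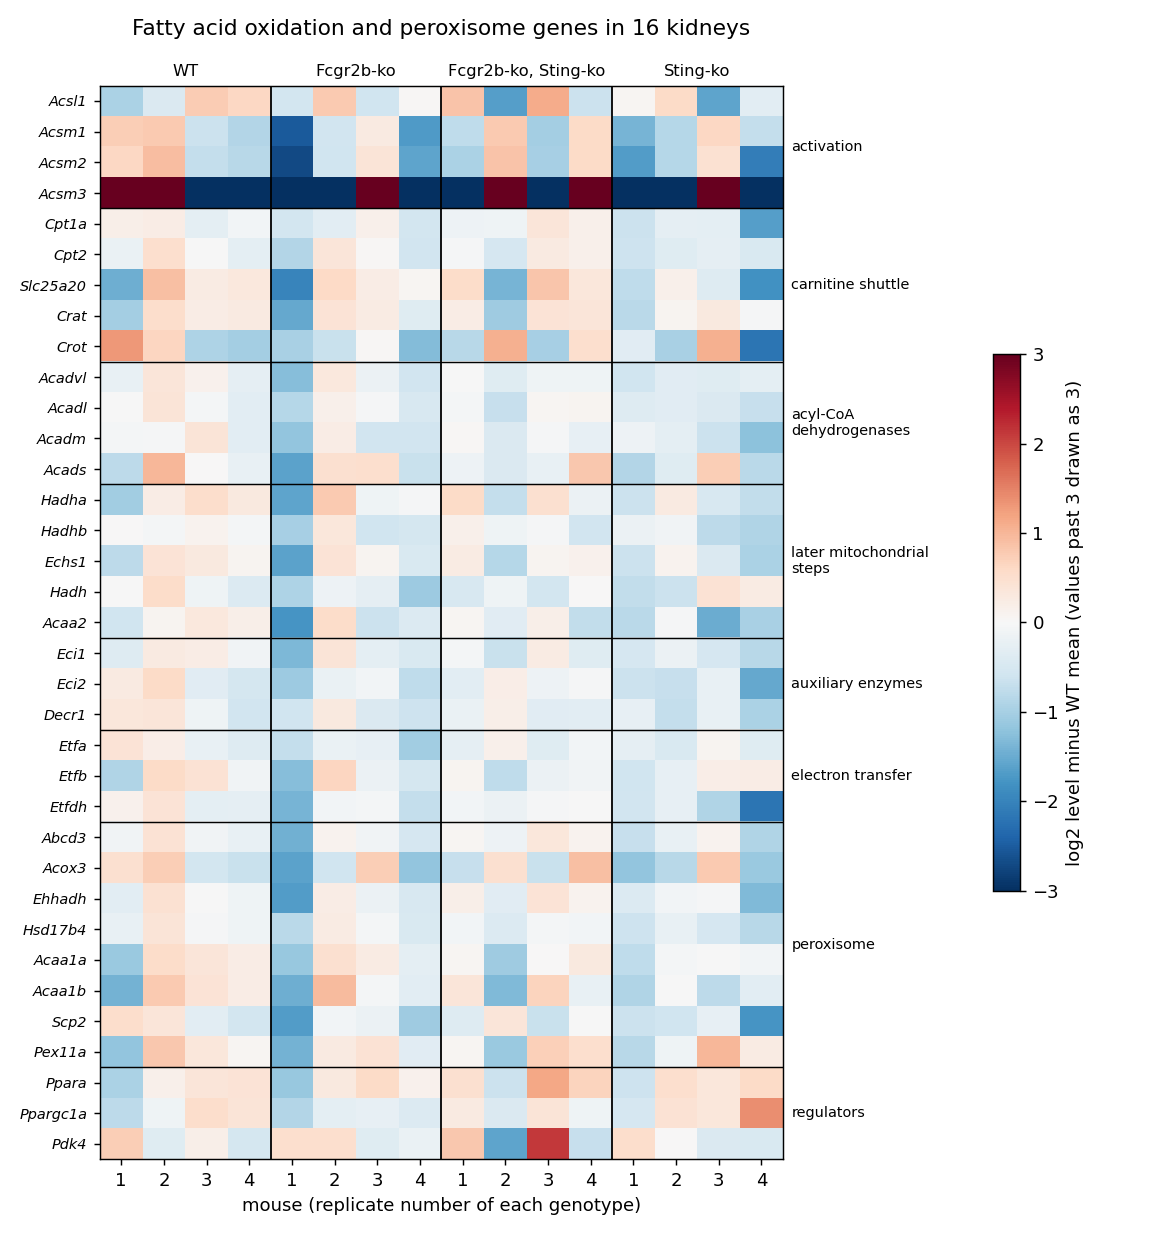
Each cell is the log2 level of a member (rows, grouped by role) in 1 mouse (columns, grouped by genotype) minus the mean of the 4 WT mice, with values past 3 drawn as 3. Fcgr2b-ko replicate 1 lies more than 0.5 below WT in 34 of 35 rows, and the row of Acsm3 splits the 16 mice regardless of genotype.

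**Figure D2:**
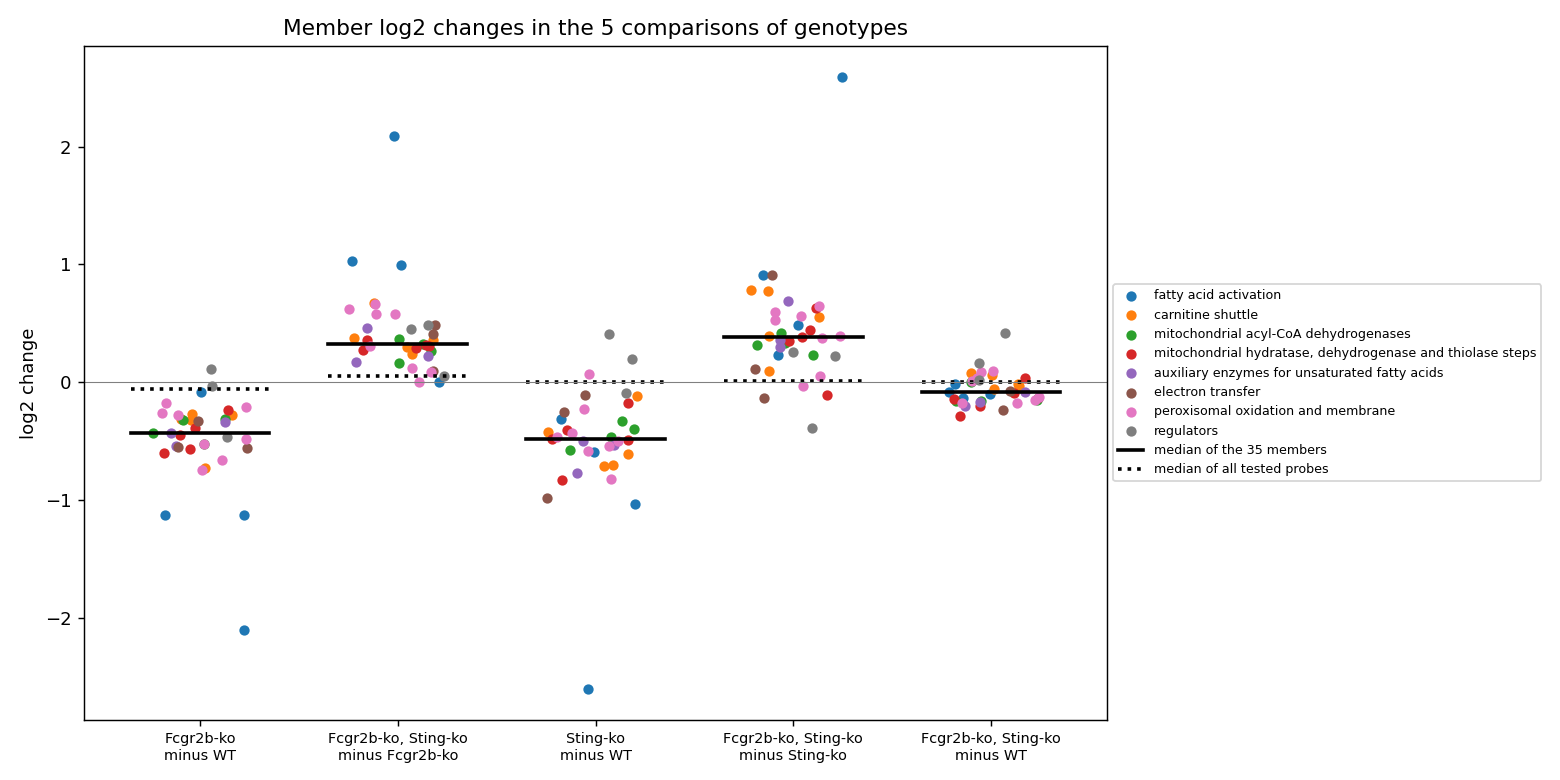
Each point is the log2 change (y axis) of 1 member in 1 of 5 comparisons (x axis), coloured by role, with the median of the 35 members as a solid line and that of all 35629 tested probes as a dotted line. The member median lies at -0.43 and -0.48 in the Fcgr2b-ko and Sting-ko mice against WT and at -0.08 in the double-deficient mice against WT.

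The interaction term asked whether adding the Sting gt allele shifted a gene differently in the Fcgr2b-deficient than in the Fcgr2b-intact mice. It was above 0 for all 35 members (52% of all probes were above 0), with a median of 0.70 (all probes: 0.03) and a range of 0.08 to 4.70. With quantile normalization and with the authors' table the median was 0.45 and 0.43, and 4 and 5 of 35 members were below 0. With slide as a block the median was 0.76, and 3 of 35 members were below 0. No member was called and neither was any probe (0%). At an unadjusted limma p under 0.05, 6 members were above 0, against 3.61% of probes. These were Cpt1a, Acadm, Eci2, Etfdh, Abcd3 and Scp2, and their smallest adjusted p was 0.661. Leaving out 1 mouse at a time gave between 3 and 14 such members, 14 without Fcgr2b-ko replicate 2 and 3 without Fcgr2b-ko replicate 1, Sting-ko replicate 4 or WT replicate 2, among others.

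Single mice carried much of this pattern. Relative to the WT mean, the median over the 35 members was -0.19, 0.42, 0.02 and -0.22 in the WT mice, -1.28, 0.27, -0.07 and -0.53 in the Fcgr2b-ko mice, -0.02, -0.42, 0.01 and 0.00 in the double-deficient mice, and -0.63, -0.25, -0.22 and -0.83 in the Sting-ko mice. The Fcgr2b-ko mice therefore ranged from the lowest of all 16 mice to above 3 of the 4 WT mice, whereas all 4 Sting-ko mice lay below 0. In Fcgr2b-ko replicate 1, 24 of 35 members were at least 2-fold below the WT mean, against 1, 0 and 8 in the other Fcgr2b-ko mice. Without that mouse the member median in Fcgr2b-ko minus WT was -0.15 with 25 of 35 members below 0, and in double-deficient minus Fcgr2b-ko it was 0.09 with 15 below 0. Without Fcgr2b-ko replicate 2, the medians were -0.65 and 0.56, and 8 and 3 members had an unadjusted limma p under 0.05. Without Sting-ko replicate 4, the median in Sting-ko minus WT was -0.35 and in double-deficient minus Sting-ko 0.27, with 0 members at an unadjusted p under 0.05 in either. Without WT replicate 2, the median in Fcgr2b-ko minus WT was -0.31 and in Sting-ko minus WT -0.33, with 0 members at that p in either, and the median in double-deficient minus WT turned to 0.07.

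Proximal tubule markers were low in most of the mice with low members, whereas injury markers were highest in Fcgr2b-ko replicates 1 and 4. The 12 proximal tubule markers (Slc34a1, Lrp2 and others, all above background on every array) had a mean level relative to WT of -1.74, 0.33, 0.07 and -0.50 in the Fcgr2b-ko mice, -0.68, -0.02, -0.45 and -0.72 in the Sting-ko mice, and between -0.30 and 0.10 in the double-deficient mice. With the marker mean as a covariate, chosen after the data were seen, the member median was -0.13 in Fcgr2b-ko minus WT, -0.15 in Sting-ko minus WT and 0.25 in the interaction, with 23, 24 and 23 of 35 members in the direction seen without it. In each of these, 0 members had an unadjusted limma p under 0.05 with the covariate, in place of 1, 4 and 6. The 7 tubular injury markers (Havcr1, Lcn2 and others, 5 above background on every array) had a mean of 2.70, 0.53, -0.18 and 2.45 in the Fcgr2b-ko mice and of -0.36 to 0.30 in the other groups, the Sting-ko mice with their low members included. The 12 leukocyte markers (10 above background on every array, 1 on none) had a mean of 2.57, 0.23, 0.60 and 1.96 in the Fcgr2b-ko mice, with the highest means in the same mice as the injury markers. They were -0.58 to 1.12 in the WT, 0.24 to 1.20 in the double-deficient and 0.12 to 0.97 in the Sting-ko mice. By the study's account the kidneys were not perfused, so leukocytes of the blood and of the tissue cannot be told apart here. Other lists varied as well, with overlapping groups: the mean of the 6 endothelium markers was 0.32 to 1.56 in the Sting-ko mice and -0.97 to 1.46 in the WT mice, and that of the 6 podocyte markers was 0.27 to 1.55 in the Fcgr2b-ko mice and -0.66 to 0.58 in the WT mice. The mean of the 10 thick limb, distal and collecting duct markers was -1.78 to 0.46 in the Fcgr2b-ko mice and -0.87 to 0.48 in the WT mice. The part of these cells in the member levels was not tested. The covariate fit is no such test, since marker RNA of the same kidneys falls with fewer cells and with less RNA per cell alike.

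**Figure D3:**
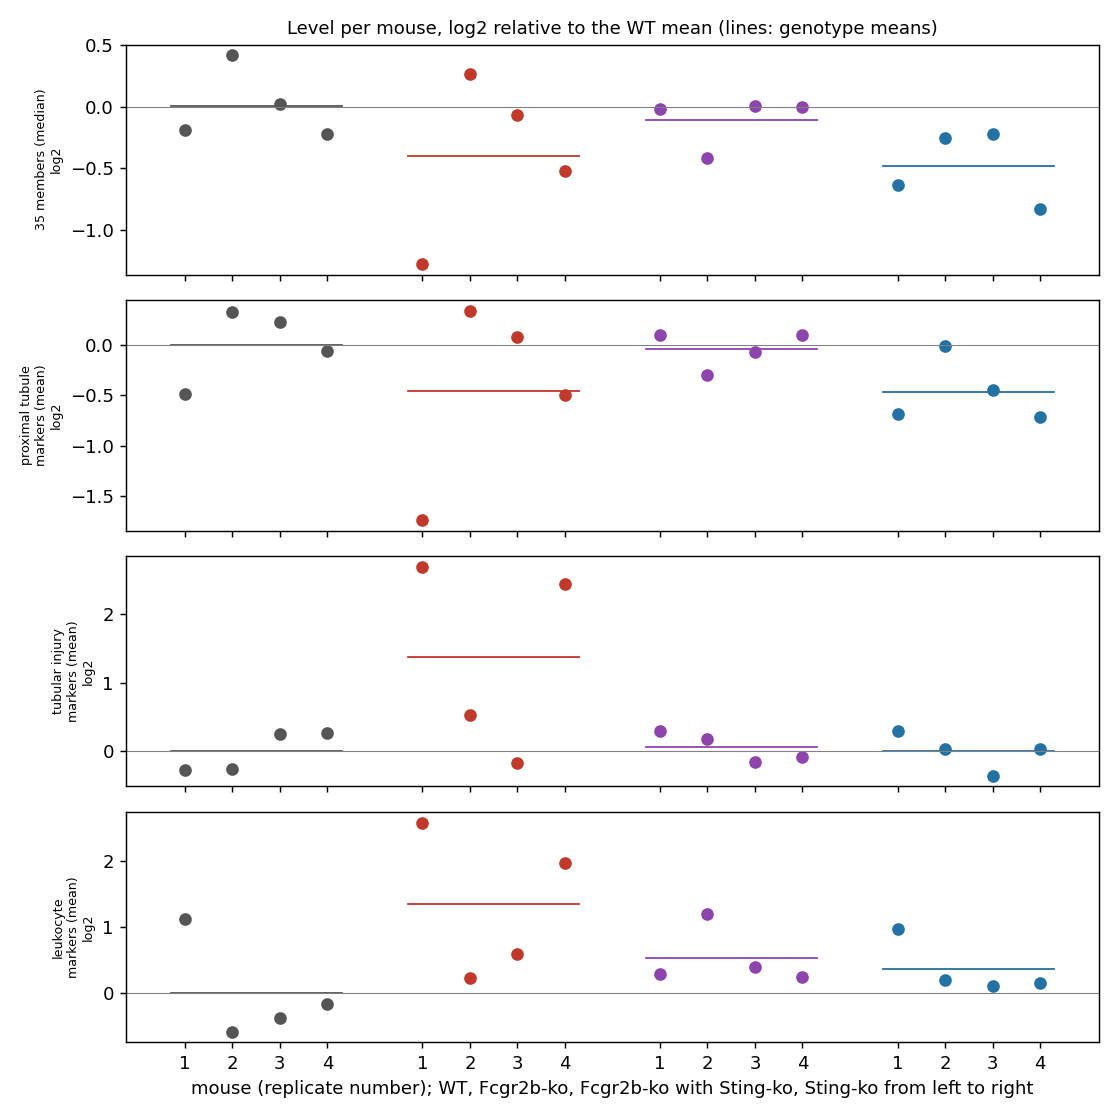
The panels give, for each of the 16 mice (x axis), the median log2 level of the 35 members and the mean log2 level of the proximal tubule, tubular injury and leukocyte markers, all relative to the WT mean, with lines at the genotype means. Fcgr2b-ko replicate 1 has the lowest member median (-1.28) and the lowest proximal tubule mean (-1.74), and Fcgr2b-ko replicates 1 and 4 have the highest injury means (2.70 and 2.45).

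The 4 genes of fatty acid activation join fatty acids to coenzyme A. Acsl1 acts on long chains, and Acsm1, Acsm2 and Acsm3 on medium chains in the mitochondrion. Acsm3 had the widest spread of all members within a genotype, with a pooled SD of 4.61, against a median of 0.61 over the members and 0.56 over all tested probes. The level of Acsm3 was 7.18, 6.68, -1.40 and -2.23 in the WT mice, -0.89, -0.86, 6.14 and -2.58 in the Fcgr2b-ko mice, -2.01, 6.73, -1.43 and 6.90 in the double-deficient mice, and -1.18, -1.88, 6.46 and -3.61 in the Sting-ko mice. The values fell into a high set of 6 mice and a low set of 10, with both sets present in every genotype. Its log2 change was -2.10 ± 2.89 (SE) in Fcgr2b-ko minus WT and -2.61 ± 2.89 (SE) in Sting-ko minus WT, both smaller than their errors. Acsm1 and Acsm2 had log2 changes of -1.13 and -1.13 in Fcgr2b-ko minus WT and of -0.59 and -1.04 in Sting-ko minus WT, and Acsl1 of -0.08 and -0.31, none of them past an unadjusted limma p of 0.05. The Acsm genes are close relatives, and cross-hybridization between them was not tested.

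The 6 mice with high Acsm3 were the 6 mice with Y-linked signal, in which Ddx3y, Kdm5d, Eif2s3y and Uty were above background and Xist, the transcript of the inactive X, was lowest. The mouse kidney, above all the proximal tubule, is known to differ between the sexes. A limma fit with the 4 genotypes and the presence of Y-linked signal, added after the data were seen, called 6 of the 35 members (17.1%), against 3.49% of all probes. Of these, 5 were higher in the mice with Y-linked signal (2.05% of all probes) and 1 was lower (1.44%). Acsm3 ranged from 6.14 to 7.18 (median 6.70) in the 6 mice with the signal and from -3.61 to -0.86 (median -1.65) in the 10 without. With genotype in the fit its log2 difference was 8.42 ± 0.38 (SE), a 343-fold difference with an adjusted p of 3.43e-09. Slc7a13, an amino acid transporter of the proximal tubule and a gene known to be higher in male kidney, was 9.06 higher on the log2 scale in the same mice. Of the other listed kidney sex markers, Slco1a1, Cyp4a12a, Cyp4a12b and Cyp2j13 were called higher there, and Slc7a12, Cyp4a14 and Prlr lower. Kap, listed as higher in males, differed by only 0.30 ± 0.23 (SE), and Cyp2d12, listed as higher in females, by -0.03 ± 0.68 (SE). Neither of these was called.

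Acsm1 and Acsm2 followed the same split. Acsm2 was 8.87, 9.19, 7.55 and 7.42 in the WT mice, 5.55, 7.65, 8.64 and 6.66 in the Fcgr2b-ko mice, 7.31, 9.11, 7.25 and 8.82 in the double-deficient mice, and 6.58, 7.40, 8.71 and 6.18 in the Sting-ko mice. Its range was 8.64 to 9.19 (median 8.85) with the signal and 5.55 to 7.65 (median 7.28) without, a log2 difference of 1.78 ± 0.28 (SE) with an adjusted p of 0.00124. Acsm1 was 7.27, 7.33, 5.90 and 5.65 in the WT mice, 4.01, 5.95, 6.82 and 4.84 in the Fcgr2b-ko mice, 5.77, 7.33, 5.51 and 7.12 in the double-deficient mice, and 5.14, 5.68, 7.16 and 5.82 in the Sting-ko mice. The 6 mice with the signal again lay above all others, with a log2 difference of 1.64 ± 0.25 (SE) and an adjusted p of 8.73e-04. Acsl1 ran the other way: it was 4.35, 4.87, 6.07 and 5.93 in the WT mice, 4.75, 6.08, 4.70 and 5.34 in the Fcgr2b-ko mice, 6.16, 3.65, 6.42 and 4.65 in the double-deficient mice, and 5.36, 5.89, 3.72 and 4.99 in the Sting-ko mice. It ranged from 3.65 to 4.87 (median 4.50) with the signal and from 4.75 to 6.42 (median 5.91) without, so that the sets overlapped, with a log2 difference of -1.52 ± 0.27 (SE) and an adjusted p of 0.00323. Acsl1 and the 3 Acsm genes therefore differed in opposite directions between the 2 sets of mice.

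Crot and Acox3, both peroxisomal, completed the set. Crot makes carnitine esters of medium-chain products that leave the peroxisome, and Acox3 is the oxidase that opens the oxidation of branched acyl-CoA. Crot was 5.95, 5.28, 3.73 and 3.62 in the WT mice, 3.68, 3.97, 4.68 and 3.34 in the Fcgr2b-ko mice, 3.82, 5.72, 3.65 and 5.16 in the double-deficient mice, and 4.30, 3.66, 5.71 and 2.46 in the Sting-ko mice. It was higher in all 6 mice with the signal, by 1.74 ± 0.27 (SE) on the log2 scale (adjusted p = 0.00117). Acox3 was 4.28, 4.55, 3.26 and 3.15 in the WT mice, 2.20, 3.22, 4.56 and 2.63 in the Fcgr2b-ko mice, 3.13, 4.29, 3.14 and 4.71 in the double-deficient mice, and 2.63, 2.97, 4.60 and 2.70 in the Sting-ko mice. It was also higher in all 6, by 1.53 ± 0.19 (SE) (adjusted p = 1.21e-04), with no overlap between the sets. With the median over the probes of a gene in place of the brightest probe, the differences of Acox3 and Acsm1 were 0.43 and 0.50 and were not called. The other 29 members were not called, with Eci2 (0.62 ± 0.19 (SE), adjusted p = 0.0907) and Scp2 (0.78 ± 0.25 (SE), adjusted p = 0.0971) closest.

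The share of mice with Y-linked signal was 2 of 4 in the WT and the double-deficient and 1 of 4 in the Fcgr2b-ko and the Sting-ko groups. With its presence in the fit, the change of Acsm3 went from -2.10 to 0.00 in Fcgr2b-ko minus WT, from -2.61 to -0.50 in Sting-ko minus WT and from 4.70 to 0.49 in the interaction. Crot and Acox3 went from -0.73 to -0.30 and from -0.66 to -0.28 in Fcgr2b-ko minus WT. Acsm1 and Acsm2 kept more of their change, from -1.13 to -0.72 and from -1.13 to -0.68 in the same comparison. Their interaction terms went from 1.62 to 0.80 and from 2.04 to 1.15. With the signal in the fit, Acsm1 had an unadjusted limma p of 0.0467 in Fcgr2b-ko minus WT, and neither gene was called. Acsl1 went the other way, from -0.08 to -0.46 in Fcgr2b-ko minus WT, from -0.31 to -0.69 in Sting-ko minus WT and from 0.31 to 1.07 in the interaction. The median over all 35 members moved little, to -0.37 in Fcgr2b-ko minus WT and -0.44 in Sting-ko minus WT. Among the 10 mice without the signal, the medians were -0.52 and -0.48.

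**Figure D4:**
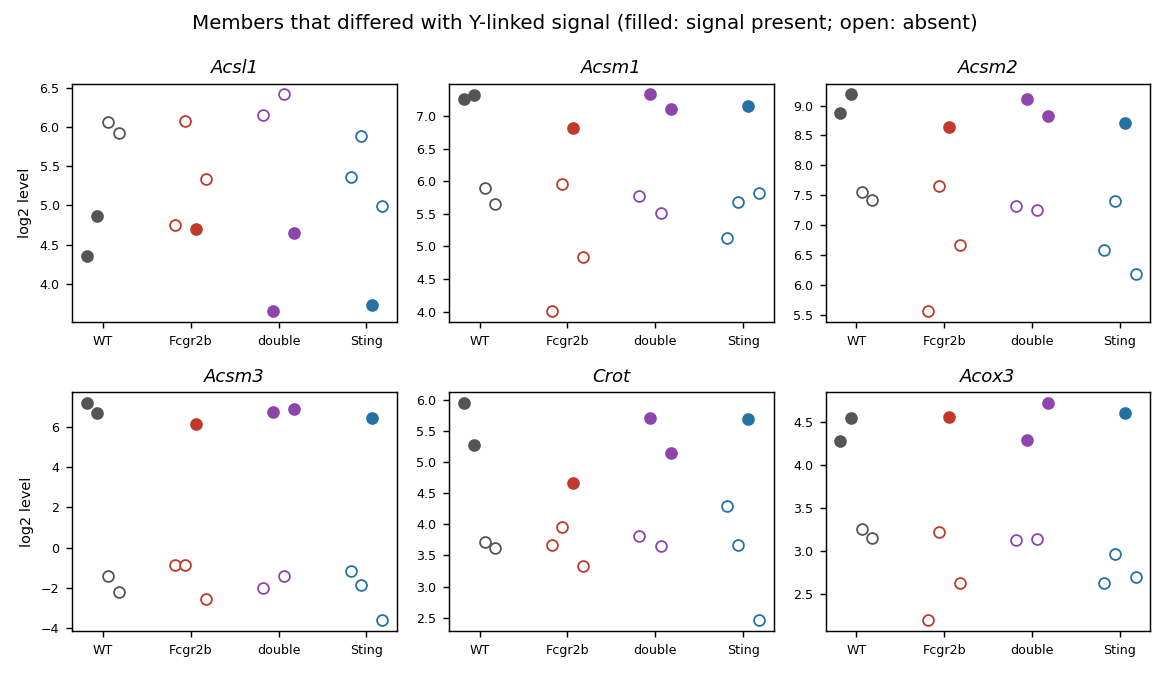
Each point is the log2 level (y axis) of a member in 1 mouse, by genotype (x axis; Fcgr2b and Sting stand for Fcgr2b-ko and Sting-ko, double for the double-deficient mice), filled where Y-linked transcripts were above background. Filled points lie above all open points for Acsm1, Acsm2, Acsm3, Crot and Acox3, and mostly below them for Acsl1.

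Acsm2, Acsm1 and Acsm3 lie in this order on the same strand of chromosome 7. Their promoters are shown because the 3 genes moved together, with RefSeq windows of 250 bases before to 50 after the gene start on GRCm38.p6, plus strand. Capitals mark, on either strand, the hexamer AGGTCA, a core bound by nuclear receptors such as PPARα, and the hexamer AGAACA, a core bound by steroid receptors.
Acsm2, chr7:119554090-119554389: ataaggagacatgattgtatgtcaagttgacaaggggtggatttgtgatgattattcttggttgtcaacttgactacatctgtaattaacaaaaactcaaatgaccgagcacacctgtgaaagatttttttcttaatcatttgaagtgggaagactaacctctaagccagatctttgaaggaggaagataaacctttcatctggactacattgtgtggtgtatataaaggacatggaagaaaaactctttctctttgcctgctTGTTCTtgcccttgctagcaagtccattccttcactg
Acsm1, chr7:119617562-119617861: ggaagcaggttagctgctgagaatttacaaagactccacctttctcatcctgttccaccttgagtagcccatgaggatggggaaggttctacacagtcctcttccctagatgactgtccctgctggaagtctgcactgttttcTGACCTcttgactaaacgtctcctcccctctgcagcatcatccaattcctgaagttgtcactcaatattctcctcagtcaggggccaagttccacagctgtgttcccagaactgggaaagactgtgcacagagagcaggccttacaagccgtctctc
Acsm3, chr7:119760673-119760972: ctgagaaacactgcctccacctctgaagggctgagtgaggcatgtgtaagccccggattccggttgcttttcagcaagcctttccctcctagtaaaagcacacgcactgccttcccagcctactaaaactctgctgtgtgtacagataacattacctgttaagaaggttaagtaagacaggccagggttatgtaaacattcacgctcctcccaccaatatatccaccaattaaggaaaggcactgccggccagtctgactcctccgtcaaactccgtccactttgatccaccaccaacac
The window of Acsm2 holds AGAACA on the opposite strand at position 13 from the gene start, that of Acsm1 holds AGGTCA on the opposite strand at position -107, and that of Acsm3 holds neither. Of the 34 windows of the 31 members in the table, 2 hold AGAACA (5.88%), against 19.0% of all 32851 promoter windows. AGGTCA is in 6 of the 34 (17.6%), against 16.3% of all. AGGTCA repeated with 1 base between, the form that PPARα binds with its partner RXR, is in 0 of the 34 windows and in 0.0396% of all, and its looser form with AGGNCA in place of each copy in 0 and in 0.381%. Both hexamers were chosen after the levels were seen, and AGGTCA matches are part of any match to the repeat. Promoters of Crat, Acaa2, Decr1 and Hsd17b4 were not analysed here.

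The carnitine shuttle moves activated fatty acids into the mitochondrion. Cpt1a loads them onto carnitine at the outer membrane and is the controlled step, Slc25a20 carries them across the inner membrane, Cpt2 unloads them, and Crat and Crot handle short and medium chains. All 5 had log2 changes below 0 in Fcgr2b-ko minus WT (-0.73 to -0.27) and in Sting-ko minus WT (-0.71 to -0.11), and above 0 against each in the double-deficient mice (0.24 to 0.67 and 0.10 to 0.78). Cpt1a was 5.11, 5.15, 4.64 and 4.85 in the WT mice, 4.39, 4.63, 5.10 and 4.37 in the Fcgr2b-ko mice, 4.79, 4.81, 5.31 and 5.09 in the double-deficient mice, and 4.30, 4.66, 4.65 and 3.28 in the Sting-ko mice. Every double-deficient mouse lay above every Sting-ko mouse, whereas the Sting-ko and WT mice overlapped, with Sting-ko replicate 4 far below the rest. The log2 change of Cpt1a was -0.71 ± 0.30 (SE) in Sting-ko minus WT (limma adjusted p = 0.732). It was 0.78 ± 0.30 (SE) in double-deficient minus Sting-ko (limma adjusted p = 0.885) and 1.09 ± 0.43 (SE) in the interaction (limma adjusted p = 0.661). Without Sting-ko replicate 4 the first 2 of these were -0.40 and 0.46. Cpt2, Crat and Slc25a20 did not reach an unadjusted p of 0.05 in any comparison, and the second probe of Cpt2 had the opposite sign in double-deficient minus WT. The promoter of Cpt1a, shown because the gene had the smallest p of a member in double-deficient minus Sting-ko, holds AGGTCA on the opposite strand at position -94 (capitals; GRCm38.p6, plus strand).
Cpt1a, chr19:3323051-3323350: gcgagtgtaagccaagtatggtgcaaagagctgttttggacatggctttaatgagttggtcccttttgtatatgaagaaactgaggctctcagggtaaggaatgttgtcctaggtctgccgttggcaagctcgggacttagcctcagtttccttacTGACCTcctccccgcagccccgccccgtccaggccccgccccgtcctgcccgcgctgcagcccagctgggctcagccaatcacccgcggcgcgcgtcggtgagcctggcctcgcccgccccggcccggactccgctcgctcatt

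Cpt1a and Etfdh were separated completely between the double-deficient and the Sting-ko mice (1.43% of all probes were separated in that direction), and 3, Acadvl, Acadl and Hadhb, were separated between the Sting-ko and the WT mice (1.45% of all probes). The gaps were narrow in the last comparison, and none of these 3 reached an unadjusted limma p of 0.05.

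The acyl-CoA dehydrogenases open each mitochondrial round, Acadvl on very long, Acadl on long, Acadm on medium and Acads on short chains. All 4 had log2 changes below 0 in Fcgr2b-ko minus WT (-0.53 to -0.31) and Sting-ko minus WT (-0.58 to -0.33). Acadvl was 6.57, 7.16, 6.93 and 6.54 in the WT mice, 5.52, 7.12, 6.62 and 6.23 in the Fcgr2b-ko mice, 6.78, 6.44, 6.67 and 6.67 in the double-deficient mice, and 6.20, 6.46, 6.45 and 6.52 in the Sting-ko mice. The highest Sting-ko mouse lay just under the lowest WT mouse, and the Fcgr2b-ko mice spanned almost the whole range. Its log2 change was -0.40 ± 0.29 (SE) in Sting-ko minus WT (limma adjusted p = 0.732). With the proximal tubule marker mean as a covariate it was -0.09.

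Acadl was 4.87, 5.27, 4.81 and 4.55 in the WT mice, 4.01, 5.01, 4.84 and 4.38 in the Fcgr2b-ko mice, 4.81, 4.19, 4.92 and 4.95 in the double-deficient mice, and 4.47, 4.53, 4.45 and 4.17 in the Sting-ko mice. Again the highest Sting-ko mouse lay just under the lowest WT mouse, and the log2 change was -0.47 ± 0.27 (SE) (limma adjusted p = 0.732). Acadm, the medium-chain enzyme, was 7.15, 7.18, 7.59 and 6.89 in the WT mice, 6.02, 7.42, 6.63 and 6.62 in the Fcgr2b-ko mice, 7.24, 6.77, 7.17 and 6.97 in the double-deficient mice, and 7.06, 6.90, 6.55 and 5.98 in the Sting-ko mice. Its groups overlapped in every comparison. Its interaction term was 0.94 ± 0.43 (SE) (limma adjusted p = 0.661), and 0.47 with the tubule marker mean as a covariate. Acads had a log2 change of -0.32 and -0.33 in the Fcgr2b-ko and the Sting-ko mice and of 0.00 in the double-deficient mice, all against WT, with SDs of 0.55 to 1.01 within a genotype.

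The later mitochondrial steps are run by Hadha and Hadhb, the subunits of the trifunctional protein for long chains, and by Echs1, Hadh and Acaa2 for shorter ones. All 5 were below 0 in Fcgr2b-ko minus WT (-0.60 to -0.24) and in Sting-ko minus WT (-0.83 to -0.18). Hadhb was 5.71, 5.64, 5.81 and 5.65 in the WT mice, 4.70, 6.03, 5.11 and 5.17 in the Fcgr2b-ko mice, 5.86, 5.58, 5.68 and 5.13 in the double-deficient mice, and 5.54, 5.60, 4.92 and 4.80 in the Sting-ko mice. The WT mice lay close together, and all Sting-ko mice lay below them, replicates 1 and 2 only by a little. The log2 change was -0.49 ± 0.29 (SE) in Sting-ko minus WT (limma adjusted p = 0.732), and -0.29 with the tubule marker mean as a covariate. Hadh differed least in the Sting-ko mice, with log2 changes of -0.18 in Sting-ko minus WT and -0.11 in double-deficient minus Sting-ko, neither past an unadjusted p of 0.05.

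The auxiliary enzymes Eci1, Eci2 and Decr1 rearrange double bonds of unsaturated fatty acids so that they can enter the cycle. Eci2, found in both mitochondria and peroxisomes, was 5.72, 6.02, 5.11 and 4.92 in the WT mice, 4.36, 5.24, 5.35 and 4.68 in the Fcgr2b-ko mice, 5.12, 5.64, 5.29 and 5.41 in the double-deficient mice, and 4.81, 4.75, 5.23 and 3.90 in the Sting-ko mice. Sting-ko replicate 4 was the lowest of all 16 mice, and the other 3 Sting-ko mice lay within the range of the Fcgr2b-ko mice. Its log2 change was -0.77 ± 0.33 (SE) in Sting-ko minus WT (limma adjusted p = 0.732) and 1.23 ± 0.47 (SE) in the interaction (limma adjusted p = 0.661). Without Sting-ko replicate 4 they were -0.51 and 0.97. Eci1 and Decr1 were below 0 in both comparisons with WT (-0.53 to -0.34) and above 0 in the double-deficient mice against each (0.17 to 0.36).

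Electrons from the dehydrogenases pass through the flavoprotein made of Etfa and Etfb to Etfdh, which hands them to ubiquinone in the inner membrane. Etfdh was 5.20, 5.48, 4.77 and 4.81 in the WT mice, 3.67, 4.99, 5.0 and 4.36 in the Fcgr2b-ko mice, 4.99, 4.89, 5.03 and 5.06 in the double-deficient mice, and 4.48, 4.81, 4.16 and 2.88 in the Sting-ko mice. The double-deficient mice lay close together, above every Sting-ko mouse, while the Sting-ko mice spread widely with replicate 4 lowest. The log2 change of Etfdh was -0.98 ± 0.38 (SE) in Sting-ko minus WT (limma adjusted p = 0.732), and 0.91 ± 0.38 (SE) in double-deficient minus Sting-ko (limma adjusted p = 0.885). Its interaction term was 1.47 ± 0.54 (SE) (limma adjusted p = 0.661). Without Sting-ko replicate 4, the 3 values were -0.58, 0.51 and 1.07.

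Etfa was 6.72, 6.51, 6.10 and 5.93 in the WT mice, 5.60, 6.12, 6.06 and 5.28 in the Fcgr2b-ko mice, 6.05, 6.47, 5.96 and 6.23 in the double-deficient mice, and 6.06, 5.86, 6.39 and 5.94 in the Sting-ko mice. The lowest values were those of Fcgr2b-ko replicates 1 and 4, and the other Fcgr2b-ko mice overlapped the WT mice. Etfa was the 1 member with an unadjusted limma p under 0.05 in Fcgr2b-ko minus WT, with a log2 change of -0.55 ± 0.26 (SE) (limma adjusted p = 1.0). Etfb had log2 changes of -0.33 in the Fcgr2b-ko and -0.11 in the Sting-ko mice against WT. It was one of the 4 members with a log2 change below 0 in double-deficient minus Sting-ko (-0.13), where its second probe had the opposite sign.

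**Figure D5:**
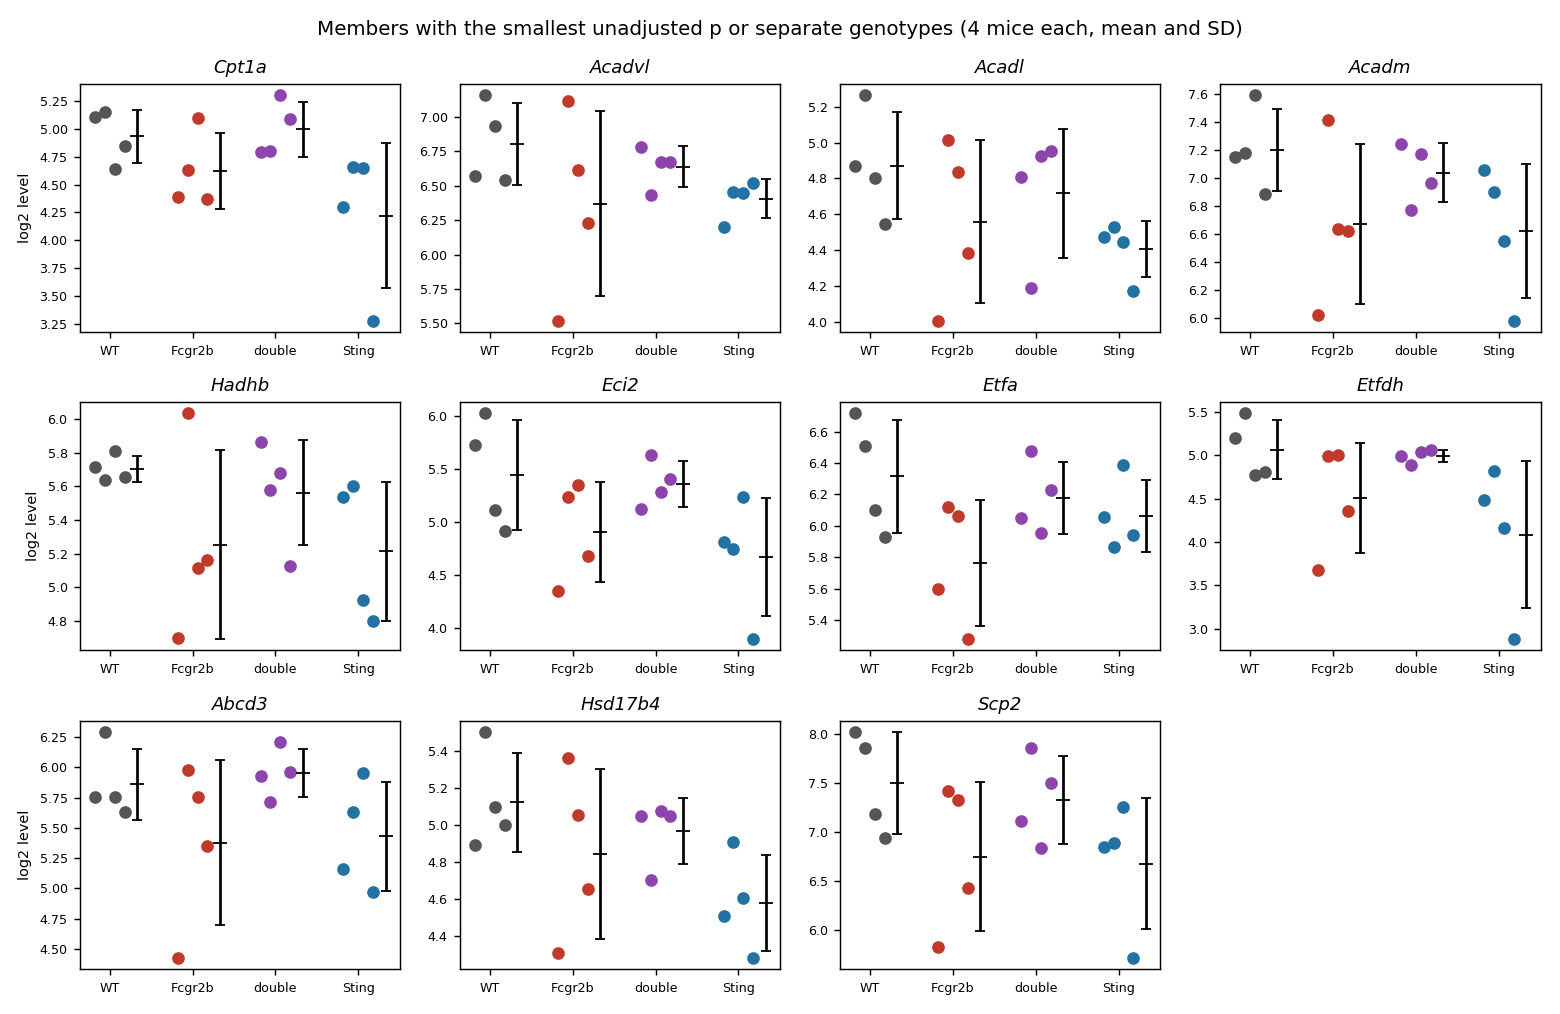
Each panel shows the log2 level (y axis) of a member in the 4 mice of each genotype (points; Fcgr2b and Sting stand for Fcgr2b-ko and Sting-ko, double for the double-deficient mice) with the mean and SD beside them. The double-deficient points of Etfdh, at 4.89 to 5.06, lie above all Sting-ko points, at 2.88 to 4.81.

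In the peroxisome, Abcd3 carries acyl-CoA in, Ehhadh and Hsd17b4 run the middle steps, Acaa1a, Acaa1b and Scp2 are thiolases (Scp2 also makes a sterol carrier), and Pex11a takes part in the division of the organelle. All 8 members, Acox3 included, had log2 changes below 0 in Fcgr2b-ko minus WT (-0.75 to -0.18) and 7 of 8 in Sting-ko minus WT (-0.82 to 0.07). Scp2 was 8.02, 7.85, 7.19 and 6.94 in the WT mice, 5.83, 7.42, 7.33 and 6.44 in the Fcgr2b-ko mice, 7.12, 7.86, 6.84 and 7.50 in the double-deficient mice, and 6.85, 6.89, 7.25 and 5.72 in the Sting-ko mice. Fcgr2b-ko replicate 1 and Sting-ko replicate 4 were the lowest mice, and the groups overlapped. Its interaction term was 1.39 ± 0.59 (SE) (limma adjusted p = 0.661), and 0.87 with the tubule marker mean as a covariate.

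Abcd3 was 5.76, 6.29, 5.76 and 5.63 in the WT mice, 4.43, 5.97, 5.75 and 5.35 in the Fcgr2b-ko mice, 5.93, 5.72, 6.21 and 5.96 in the double-deficient mice, and 5.16, 5.63, 5.96 and 4.97 in the Sting-ko mice. The lowest mouse was Fcgr2b-ko replicate 1, and the double-deficient mice overlapped all other groups. Its interaction term was 1.01 ± 0.46 (SE) (limma adjusted p = 0.661), 0.69 without Fcgr2b-ko replicate 1 and 0.38 with the tubule marker mean. Hsd17b4, the main peroxisomal hydratase and dehydrogenase for branched and very long chains, was 4.89, 5.50, 5.10 and 5.0 in the WT mice, 4.31, 5.36, 5.05 and 4.66 in the Fcgr2b-ko mice, 5.05, 4.70, 5.07 and 5.05 in the double-deficient mice, and 4.51, 4.91, 4.61 and 4.29 in the Sting-ko mice. In Hsd17b4, 3 of 4 Sting-ko mice lay below all WT mice, and replicate 2 overlapped them. Its log2 change was -0.54 ± 0.25 (SE) in Sting-ko minus WT (limma adjusted p = 0.732), and it had the smallest within-genotype SD of the members, 0.31. Acaa1a and Acaa1b had log2 changes of -0.18 and -0.21 in Fcgr2b-ko minus WT and of -0.23 and -0.50 in Sting-ko minus WT. They are near-identical copies, and their probes may not separate them.

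The regulators were split in direction against WT. Ppara, the receptor that fatty acids activate, had a log2 change of -0.03 in Fcgr2b-ko minus WT, 0.20 in Sting-ko minus WT and 0.42 in double-deficient minus WT. Ppargc1a had -0.46, 0.41 and 0.02 in the same order. Pdk4, a kinase that turns the cell from glucose to fatty acids, had 0.11, -0.09 and 0.16. None of these passed an unadjusted limma p of 0.05. The interaction terms of the 3, at 0.08 to 0.25, were among the smallest of the members.

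Ppara shared another pattern with some members. Its levels were 2.50, 3.61, 3.82 and 3.87 in the WT mice, 2.30, 3.74, 4.03 and 3.58 in the Fcgr2b-ko mice, 3.93, 2.80, 4.60 and 4.13 in the double-deficient mice, and 2.83, 3.95, 3.79 and 4.02 in the Sting-ko mice. The lowest mouse of each genotype was WT replicate 1, Fcgr2b-ko replicate 1, double-deficient replicate 2 and Sting-ko replicate 1, and these were the lowest 4 of all 16 mice. The same 4 mice were lowest for 7 of the 35 members (20%), against 7.57% of all tested probes: Crat, Etfb, Acaa1a, Acaa1b, Pex11a, Ppara and Ppargc1a. The mice were picked after these levels were seen. Their fat marker means (Adipoq, Plin1 and others) were 3.21, 2.67, -1.94 and 1.82 relative to WT, the highest 3 of all mice and the lowest, and their leukocyte marker means were 1.12, 2.57, 1.20 and 0.97. The part of these cells was not tested. Without the 3 mice with the highest Adipoq, the member median was -0.25 in Fcgr2b-ko minus WT, 0.09 in double-deficient minus Fcgr2b-ko and -0.52 in Sting-ko minus WT.

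Further genes of the pathway leaned the same way. Of 45 tested enzymes of oxidation and uptake, 0 were called in any comparison. In Fcgr2b-ko minus WT 40 of 45 were below 0 (median -0.43), with Acsm5 at -0.86 (limma adjusted p = 1.0) and Acsl3 at -0.60 (limma adjusted p = 1.0) at the smallest p. In Sting-ko minus WT 39 of 45 were below 0 (median -0.44), led by Acad11 at -0.86 (limma adjusted p = 0.732). In double-deficient minus Fcgr2b-ko 35 of 45 were above 0 (median 0.35), with Acadsb at 0.63 (limma adjusted p = 1.0) and Acsm5 at 0.82 (limma adjusted p = 1.0). Of 15 peroxisome biogenesis genes, which build and fill the organelle, all 15 were below 0 in Fcgr2b-ko minus WT (median -0.35) and all 15 in Sting-ko minus WT (median -0.42), and 0 were called or reached an unadjusted p of 0.05. Their interaction terms were above 0 in 15 of 15, with Pex3 at 1.05 (limma adjusted p = 0.661).

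Ketone and PPARα target genes split more evenly. Of the 15 tested, 8 were below 0 in Fcgr2b-ko minus WT (median -0.04) and 9 in Sting-ko minus WT (median -0.49), with 0 called. Plin2, which coats lipid droplets, had the smallest p, at -0.87 in Sting-ko minus WT (limma adjusted p = 0.732) and 0.72 in double-deficient minus Sting-ko (limma adjusted p = 0.885). Acat1, of ketone metabolism, was at -0.97 and the uncoupling protein Ucp2 at 0.90 in Fcgr2b-ko minus WT, neither past an unadjusted p of 0.05. Of 9 nuclear receptors and coactivators, 6 were below 0 in Fcgr2b-ko minus WT (median -0.05) and 4 in Sting-ko minus WT (median 0.03), with Tfam, which maintains mitochondrial DNA, at -0.73 (limma adjusted p = 0.732).

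More than 1 probe was tested for 14 members. The probes of a member agreed in sign in all comparisons but those of Acox3 in Fcgr2b-ko minus WT, Sting-ko minus WT and the interaction, Acsl1 in double-deficient minus Fcgr2b-ko and Etfb in double-deficient minus Sting-ko, each of these with 1 of 14 members, and of 5 of 14 members in double-deficient minus WT.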

How the data were processed

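Kidney RNA of 16 mice was hybridized to 1-colour Agilent arrays, 1 mouse per array. Per the file headers, Agilent Feature Extraction 11.0 measured each spot, subtracted background and removed spatial trends, and the deposited processed signals are intensities, not scaled between arrays. A log2 table that the authors deposited served as an alternative, and how it was normalized is not given in the sources used here. Spots marked as outliers (76 to 109 an array) and control spots were left out, and spots of a probe were averaged. Each log2 intensity was then set against the 75th percentile of its own array. Of 56605 probes, the 35629 that were well above background on 4 or more arrays were tested with limma 3.58.1 in R 4.3.3, on group means of the 4 genotypes. Symbols came from matching the systematic name of each probe in the scanner files to RefSeq genes. Only matches to a single gene were kept, which named 32994 probes. A call needed a 2-fold change or more and p under 0.05 after Benjamini-Hochberg adjustment. The test was checked on simulated data for Fcgr2b-ko minus WT. It recovered 0 of 200 changed probes at a true log2 change of 1, 140 of 200 at 2 and 177 of 200 at 3. The absence of a call therefore does not show the absence of a 2-fold or smaller change. The number of arrays limits the precision. Replicate numbers were not taken to pair the mice. Of 24 same-numbered pairs, 11 deviated together with a correlation above 0.1, and the correlations ranged from -0.60 to 0.69. This count alone does not settle whether the numbers pair the mice. The first number of the animal label, shared by 3 pairs of mice, was tried as a random block. Members, gene lists and tests were chosen with earlier results of these data known. The members named with full values are those with an unadjusted p under 0.05 or groups that did not overlap, and of each further list up to 3 genes with the smallest p per comparison. Genes that differed with Y-linked signal, and the regulators, were named after their values were seen.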

Additional observations from a re-analysis of the deposited data

Results flagged for a closer look

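In groups of 4 mice, 5 of 144 tested sets of values had 1 mouse far from the other 3 (a gap to the nearest mouse that passes Dixon's 95% critical value). Chance alone sets apart about 1 in 20 such groups. In double-deficient replicate 2 this was so for Crat, at 2.77 against 4.04 to 4.23 in the other 3 mice, and for Echs1, at 4.37 against 5.30 to 5.46. Hsd17b4 was at 4.70 in the same mouse, against 5.05 to 5.07, and the median over the 35 members relative to WT was -0.42 there, against -0.02 to 0.01. In Sting-ko replicate 1 it was so for Acaa1a, at 5.66 against 6.35 to 6.41.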

How the results depend on the processing

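No setting among 36 called a member between genotypes. For the Mann-Whitney test with adjustment this was fixed in advance, since with 4 mice a group its p cannot fall below 0.0286. The medians over the members, however, depended on the normalization. In the order Fcgr2b-ko minus WT, double-deficient minus Fcgr2b-ko, Sting-ko minus WT, double-deficient minus Sting-ko, double-deficient minus WT and interaction, they were -0.43, 0.32, -0.48, 0.38, -0.08 and 0.70. Quantile normalization gave -0.27, 0.29, -0.25, 0.26, 0.02 and 0.45, and the authors' table -0.26, 0.28, -0.23, 0.25, 0.02 and 0.43. Scaling by the median of the array gave -0.59, 0.36, -0.72, 0.51, -0.20 and 0.98, with medians of all probes at -0.21, 0.09, -0.24, 0.14, -0.11 and 0.32. The sign of the median in double-deficient minus WT also turned among the mice without Y-linked signal (0.06) and without WT replicate 2 (0.07). Leaving out each mouse in turn gave -0.65 to -0.15, 0.09 to 0.56, -0.57 to -0.33, 0.27 to 0.49, -0.16 to 0.07 and 0.49 to 1.0 in the same order. Without Fcgr2b-ko replicate 1 the medians in Fcgr2b-ko minus WT and double-deficient minus Fcgr2b-ko were -0.15 and 0.09, and without Fcgr2b-ko replicate 2 they were -0.65 and 0.56. Members at an unadjusted limma p under 0.05 were then 0 to 8, 0 to 3, 0 to 6, 0 to 3, 0 and 3 to 14, with the 8 and the 14 without Fcgr2b-ko replicate 2, and with 0 in Sting-ko minus WT without WT replicate 2 or without Sting-ko replicate 4. With the proximal tubule marker mean as a covariate, the median in the interaction was 0.25, and 0 members had an unadjusted limma p under 0.05 there. Normexp background correction gave 7 in place of 4 members at an unadjusted p under 0.05 in Sting-ko minus WT and 12 in place of 6 in the interaction. With a replicate block, 0 members were called, and 3 members in place of 2 had an unadjusted limma p under 0.05 in double-deficient minus Sting-ko. Every genotype holds the same replicate numbers, so this block could not move the medians, which were again -0.43, 0.32, -0.48, 0.38, -0.08 and 0.70. For the 11 named members, the sign was followed only in the 16 member and comparison pairs that met the naming rule. In those pairs the log2 change kept its sign under every setting. The rule picked them from the same data by an unadjusted p under 0.05 or separated groups. That choice favours a stable sign, so this is no test of how stable the members are. Among all members, 0 were below 0 in the interaction in the main fit and with scaling by the median. With quantile normalization 4 were below 0 there, and with the proximal tubule marker mean as a covariate 12 were. The 6 members that differed with Y-linked signal were called under every setting run for them except the median over the probes of a gene, which called 4, without Acsm1 (0.50) and Acox3 (0.43). The settings on the presence of Y-linked signal, the tubule marker mean, Adipoq and the median of the tested probes were chosen after seeing the data. The cause of these shifts was not tested.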
